A study of Mus musculus with 6 samples.

Results

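The genes of glucose and lactate transport, glycolysis, pyruvate entry and the pentose phosphate pathway were followed in 6 mouse libraries. Their labels name bone marrow stromal cells, and 3 of the libraries had been given the protein GCA. In every library the macrophage markers summed to more than the stromal markers (at least 18843 FPKM against at most 3205.9). The changes below therefore cannot be assigned to 1 cell type. The members were taken by gene symbol, through the GENCODE M21 annotation of the Ensembl identifiers. All 37 genes sought were found among the 27263 genes with a value. In GCA libraries, 12 of the 36 tested members fell (33.3%, where 6.43% of all tested genes did). Another 2 rose (5.56%, where 11.5% of all tested genes did). Pyruvate kinase (Pkm) and the glucose transporter gene Slc2a1 fell by the most. Of the falls, only those of Pkm, Eno1, G6pdx and Pgd passed in every alternative setting, and that of Slc2a1 did not.

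Bone marrow stromal cells are adherent marrow cells that can give rise to bone and fat cells. Primary cells of C57BL/6 mice, sorted from leg bone marrow as Sca-1+ CD29+ CD45- CD11b-, were grown in serum and then treated. The GCA group (n = 3) received rGCA at 50 nM for 3 days, and the PBS group (n = 3) received PBS, the buffer, for 3 days. The labels do not spell GCA out; what is known of the study makes it grancalcin, a protein of myeloid cells that binds calcium, with rGCA as the recombinant protein. The labels used here give neither the age of the mice nor whether replicates were separate animals or cultures. A p-value therefore speaks only of the spread among these 6 samples, and that spread may be technical.

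Glycolysis splits glucose into pyruvate and yields ATP, and lactate dehydrogenase turns pyruvate into lactate, which leaves the cell through monocarboxylate transporters. The pentose phosphate pathway branches off after the first glycolytic step; its oxidative arm makes NADPH, and its other arm makes ribose phosphate and returns sugars to glycolysis. Osteoblast-lineage cells and activated macrophages are both known to rely on glycolysis, and many of its genes are known targets of the hypoxia-inducible factor HIF1.

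Levels are given in FPKM, as deposited: fragments counted on a gene, divided by the length of its exons and by the total of the library. The totals behind them ran from 17543509 to 18645932 fragments in GCA libraries and from 17828862 to 18229435 in PBS libraries. At that depth 1 fragment in a gene of 2 kb was worth 0.0268 to 0.0285 FPKM, and no member had fewer than 99 fragments in any library. Fold changes are differences of log2(FPKM + 1), GCA minus PBS, from limma over the 11984 genes whose mean reached 1 FPKM, and adjusted p-values are Benjamini-Hochberg values over those genes. In bulk RNA, fewer cells of a type and less RNA per cell cannot be told apart. GCA replicate 2 stood apart from GCA replicates 1 and 3 on the second principal component, which held 16.2% of the variance.

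The sum of the 37 genes was 1510.3, 1669.8 and 1471.4 FPKM in GCA replicates 1 to 3, against 1890.6, 1975.3 and 1935.1 FPKM in PBS replicates 1 to 3. Each GCA library was below each PBS library, with GCA replicate 2 nearest to PBS. Of the 36 members tested, 12 fell, which is 33.3% of them, where 6.43% of all tested genes fell. Rises numbered 2, or 5.56%, where 11.5% of all tested genes rose. In either direction 38.9% of the tested members passed, against 17.9% of all tested genes. The other 22 did not pass the test, 17 of them with a negative and 5 with a positive fold change. The median log2 fold change was -0.16 over the tested members and 0.01 over all tested genes. All 3 GCA values lay below all 3 PBS values in 19 members (52.8%), where 16.8% of all tested genes did, and above them in 2 members (5.56%), where 21.6% did. Among all genes that passed, 64.2% were higher with GCA, and 53.8% after quantile normalization; the members numbered 14 lower and 2 higher under that normalization. With GCA replicate 2 left out 17 members passed, with PBS replicate 2 left out 7 did, and with any other library left out 9 did.

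**Figure D1:**
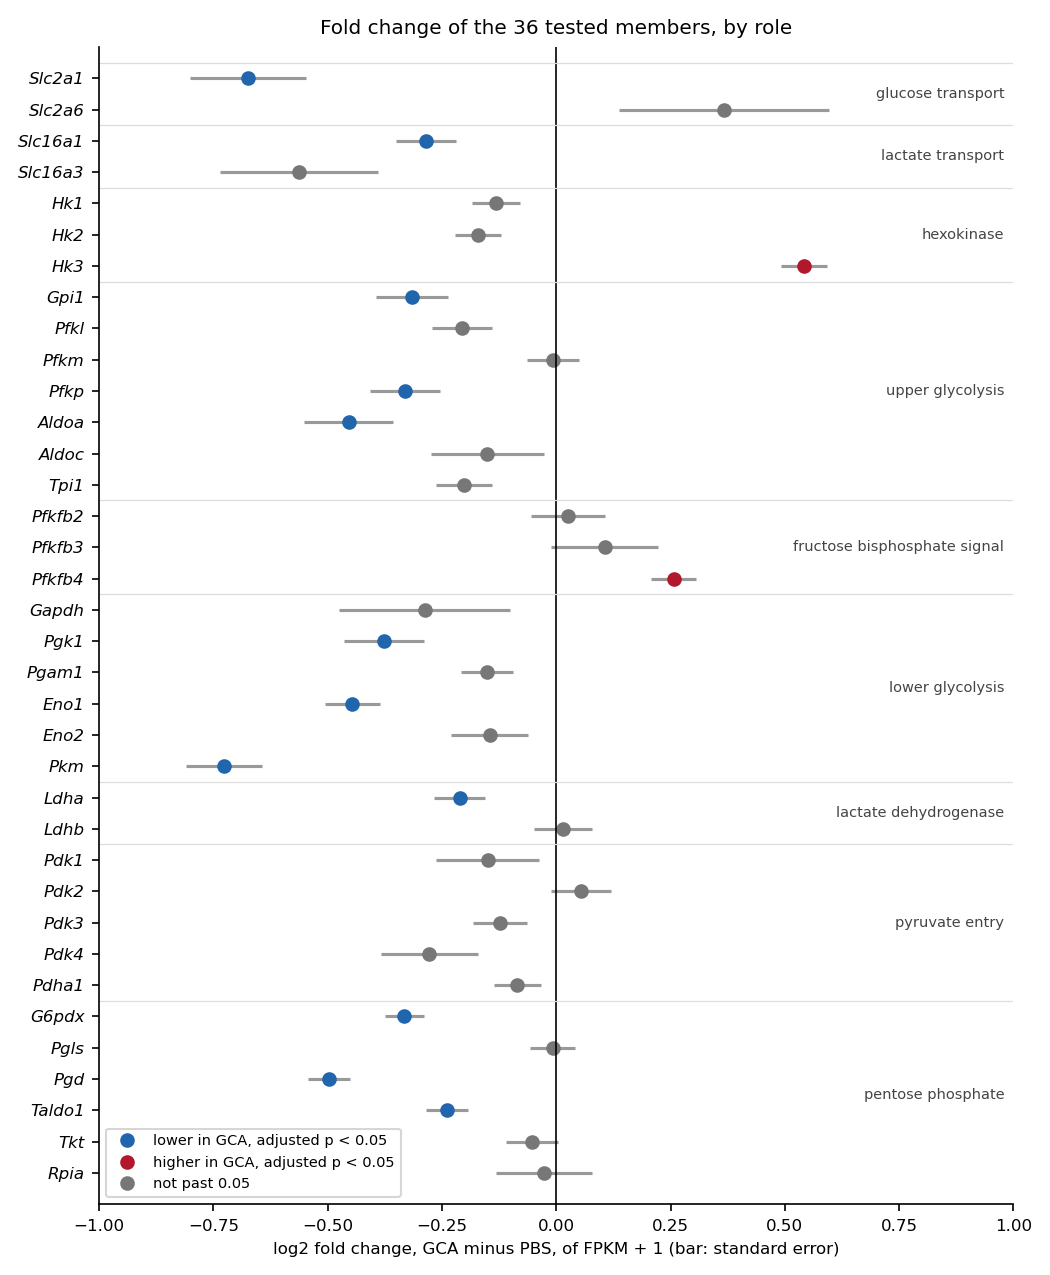
Log2 fold change, GCA minus PBS, of FPKM + 1 for each of the 36 tested genes, ordered by role, with the standard error as a bar and the colour giving the call at an adjusted p of 0.05. Most points lie left of 0, with Pkm at -0.73 and Slc2a1 at -0.67 farthest left, and Hk3 at 0.54 farthest right.

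Of the transporters, 1 for glucose and 1 for lactate fell, where 6.43% of all tested genes did. Slc2a1 (ENSMUSG00000028645, chromosome 4, 119108711 to 119137983, GRCm38), the widespread glucose transporter GLUT1, was at 9.02, 10.83 and 7.36 FPKM in GCA replicates 1 to 3, against 16.12, 15.22 and 13.49 FPKM in PBS replicates 1 to 3. The groups did not overlap, and the mean was 39.3% lower with GCA (log2 fold change -0.67, SE 0.13, adjusted p = 0.0129 by limma). Without PBS replicate 2 its adjusted p was 0.0516. Slc16a1, the lactate transporter MCT1, was at 3.31, 3.30 and 3.04 FPKM in GCA libraries, against 4.18, 4.38 and 3.87 FPKM in PBS libraries. It fell by 22.3% (log2 fold change -0.28, SE 0.07, adjusted p = 0.0205), with adjusted p-values of 0.0624 without GCA replicate 3, 0.0614 without PBS replicate 1 and 0.0746 without PBS replicate 2. The other lactate transporter, Slc16a3 (MCT4), which is typical of strongly glycolytic cells, had 2.52, 4.47 and 2.55 FPKM in GCA libraries, against 5.19, 5.30 and 4.63 FPKM in PBS libraries. Its GCA values were all lower but its adjusted p was 0.0681, and 0.000959 without GCA replicate 2, the GCA library nearest to PBS.

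The remaining glucose transporters did not pass. Slc2a6 (GLUT6), a transporter of lysosomes and of activated macrophages, averaged 8.06 ± 2.89 FPKM with GCA and 5.84 ± 0.85 with PBS (SD, n = 3 each; adjusted p = 0.331), and the GCA mean rests on replicate 1 at 11.39 FPKM. Slc2a3 (GLUT3), a high-affinity transporter of neurons and leukocytes, was below the level for testing at 1.06, 1.01 and 1.32 FPKM with GCA, against 0.75, 0.77 and 0.80 with PBS. Its GCA values were all higher, and with the filter left out its log2 fold change was 0.26 with an adjusted p of 0.162. As a share of the summed FPKM of these 3 transporters, Slc2a1 held 50.1% ± 8.49 with GCA and 69.4% ± 0.77 with PBS (SD, n = 3 each), and the groups did not overlap.

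The hexokinases, which trap glucose in the cell as its phosphate, moved apart. Hk3 (ENSMUSG00000025877, chromosome 13, 55005985 to 55021385), the isoform of myeloid cells, was at 45.17, 45.22 and 42.65 FPKM in GCA replicates 1 to 3, against 30.36, 31.22 and 28.87 FPKM in PBS replicates 1 to 3. Every GCA library was well above every PBS library, 1.47-fold by means (log2 fold change 0.54, SE 0.05, adjusted p = 0.000524). Hk2, the inducible isoform of muscle and proliferating cells, was at 11.10, 10.47 and 10.41 FPKM with GCA, against 12.41, 12.26 and 11.71 with PBS. Its values did not overlap and lay just on the other side of the threshold (log2 fold change -0.17, SE 0.05, adjusted p = 0.0505). Hk1, the housekeeping isoform, averaged 14.3 ± 0.35 FPKM with GCA and 15.8 ± 0.79 with PBS (SD, n = 3 each; adjusted p = 0.118). With Hk3 the most abundant, the sum of the 3 hexokinases was 69.3 ± 1.95 FPKM with GCA and 58.0 ± 1.96 with PBS, 1.19-fold. Hk3 held 64.0% ± 0.34 of that sum with GCA and 52.0% ± 0.98 with PBS.

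**Figure D2:**
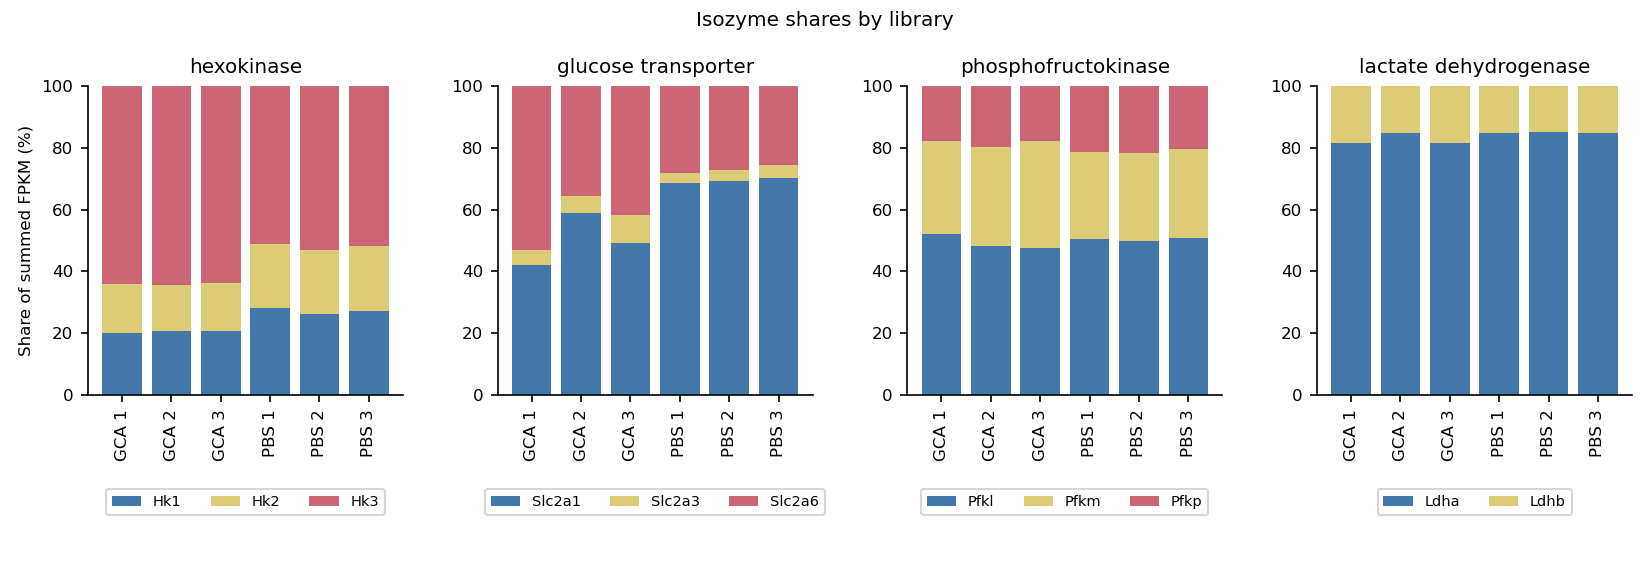
Share of the summed FPKM, in percent, that each isozyme held in each library, with GCA replicates 1 to 3 on the left and PBS replicates 1 to 3 on the right of each panel. Hk3 held 64.0% with GCA and 52.0% with PBS on average, and Slc2a1 50.1% and 69.4%.

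Of the 7 genes between glucose phosphate and the triose phosphates, 3 fell and none rose. Among all tested genes 6.43% fell and 11.5% rose. Aldoa, the main aldolase, was at 138.45, 172.65 and 130.36 FPKM in GCA replicates 1 to 3, against 196.47, 204.96 and 200.15 FPKM in PBS replicates 1 to 3. It fell by 26.6% (log2 fold change -0.45, SE 0.10, adjusted p = 0.0181). The symbol Aldoa is also carried by another listed Ensembl identifier, whose level is not given here. The values are those of the aldolase gene ENSMUSG00000030695. Gpi1, the isomerase that makes fructose phosphate, was at 35.50, 44.26 and 37.14 FPKM with GCA, against 47.33, 49.63 and 48.69 with PBS (log2 fold change -0.32, SE 0.08, adjusted p = 0.0283). Pfkp, the platelet-type phosphofructokinase, was at 4.56, 5.16 and 4.23 FPKM with GCA, against 6.42, 6.21 and 5.66 with PBS (log2 fold change -0.33, SE 0.08, adjusted p = 0.0215). None of these 3 genes overlapped between groups, and in each the highest GCA value was in replicate 2. Among all tested genes, 16.8% had all 3 GCA values below all 3 PBS values.

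Those 3 calls were lost on leaving out most libraries in turn, while the log2 fold changes stayed at -0.57 to -0.37 for Aldoa, -0.41 to -0.25 for Gpi1 and -0.39 to -0.28 for Pfkp. Aldoa had an adjusted p of 0.063 without GCA replicate 1 and of 0.0571, 0.0643 and 0.0605 without PBS replicates 1, 2 and 3. Gpi1 had 0.0847 and 0.0853 without GCA replicates 1 and 3, and 0.0679, 0.0923 and 0.0825 without PBS replicates 1, 2 and 3. Pfkp had 0.0666 and 0.0628 without GCA replicates 1 and 3, and 0.0745 and 0.0733 without PBS replicates 1 and 2.

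The 4 other genes of this stretch did not pass. Pfkl, the liver-type phosphofructokinase, averaged 12.4 ± 1.00 FPKM with GCA and 14.5 ± 0.62 with PBS (adjusted p = 0.0639). Tpi1, which interconverts the triose phosphates, averaged 79.8 ± 5.03 and 91.9 ± 4.73 FPKM with GCA and PBS (SD, n = 3 each; adjusted p = 0.0563, and 0.0257 without GCA replicate 2). Both had all GCA values below all PBS values. Pfkm, the muscle type, averaged 8.08 FPKM with GCA and 8.11 with PBS (adjusted p = 0.953), and Aldoc 2.03 and 2.38 (adjusted p = 0.439). Among the phosphofructokinases the share of Pfkp in summed FPKM was 18.5% with GCA and 21.2% with PBS. That of Pfkm was 32.2% and 28.3%, without overlap in either. These shares rest on exon lengths of 13401 bases for Pfkp and 3340 for Pfkm. In fragments, Pfkp was above Pfkm in every library (1058 to 1569 against 452 to 514). The 7 genes summed to 293 ± 33.1 FPKM with GCA and 372 ± 9.66 with PBS, 0.788-fold.

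The bifunctional Pfkfb enzymes set the level of a fructose bisphosphate that activates phosphofructokinase. Of the 3 genes 1 rose, where 11.5% of all tested genes did. Pfkfb4 (ENSMUSG00000025648, chromosome 9, 108991778 to 109032228) was at 6.81, 6.78 and 7.03 FPKM in GCA replicates 1 to 3, against 5.63, 5.59 and 5.55 FPKM in PBS replicates 1 to 3. The groups were tight and did not overlap (1.23-fold, log2 fold change 0.26, SE 0.05, adjusted p = 0.0104). Rescaling each library to TPM left its log2 fold change at 0.28 with an adjusted p of 0.0719. Pfkfb3, the inducible isoform with the strongest kinase activity, was at 19.23, 22.81 and 17.17 FPKM with GCA, against 20.21, 18.58 and 15.90 with PBS. These values overlapped (adjusted p = 0.574), as did those of Pfkfb2, the heart isoform, at 1.68 ± 0.20 FPKM with GCA and 1.63 ± 0.06 with PBS (SD, n = 3 each; adjusted p = 0.861).

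From glyceraldehyde phosphate to pyruvate, 3 of 6 genes fell and none rose, where 6.43% of all tested genes fell and 11.5% rose. Pkm (ENSMUSG00000032294, chromosome 9, 59656368 to 59679375), the pyruvate kinase of most tissues outside liver and red cells, was at 178.41, 218.70 and 175.07 FPKM in GCA replicates 1 to 3, against 306.49, 317.60 and 320.05 FPKM in PBS replicates 1 to 3. The highest GCA value was far below the lowest PBS value, and the mean was 39.4% lower (log2 fold change -0.73, SE 0.08, adjusted p = 0.0014). Gene-level values do not separate its M1 and M2 splice forms. Eno1 (ENSMUSG00000063524, chromosome 4, 150236721 to 150248879), the widespread enolase, was at 93.23, 104.62 and 92.85 FPKM with GCA, against 126.31, 136.29 and 134.12 with PBS (26.7% lower, log2 fold change -0.45, SE 0.06, adjusted p = 0.00256). Pgk1, the first ATP-yielding enzyme, was at 128.77, 153.25 and 120.43 FPKM with GCA, against 166.38, 181.77 and 173.12 with PBS (22.8% lower, log2 fold change -0.38, SE 0.09, adjusted p = 0.0226). Pkm and Eno1 passed in all 18 alternative settings, whereas Pgk1 had an adjusted p of 0.0754 and 0.0564 without GCA replicates 1 and 3, and of 0.0528, 0.0812 and 0.0692 without PBS replicates 1, 2 and 3.

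Gapdh, often taken as a reference gene, was at 25.82, 43.87 and 36.18 FPKM in GCA replicates 1 to 3, against 42.02, 44.71 and 40.40 FPKM in PBS replicates 1 to 3. The GCA libraries were spread more widely than the PBS libraries and the groups overlapped (log2 fold change -0.29, SE 0.19, adjusted p = 0.346). The value rested on single libraries, at -0.09 without GCA replicate 1 (adjusted p = 0.58) and -0.46 without GCA replicate 2 (adjusted p = 0.0901). Its value is uncertain, because Gapdh shares at least 150 bases at 97% identity or more with 48 other annotated genes, 45 of them pseudogenes. The pseudogenes Gm7336 and Gm5559 were listed above Gapdh itself in FPKM in every library. Gm7336 was at 72.6, 87.2 and 72.5 FPKM with GCA and 85.6, 88.2 and 91.5 with PBS. FPKM divides Gapdh by 4133 bases of exons, so this order does not show that either pseudogene took more fragments than Gapdh. Added up, Gapdh and its copies took 4924, 6741 and 5937 fragments in GCA libraries and 6770, 7227 and 6664 in PBS libraries, and the share given to Gapdh was 38.7% in GCA replicate 1 and 44.7% to 47.2% in the other 5 libraries. The labels do not say how fragments shared by such copies were assigned. In every library the recovered fragments of all genes summed to more than the total. The sum was 19614394 against 18229435 in PBS replicate 1, and 19142829 against 17857566 in GCA replicate 1. Some fragments may thus have been counted on more than 1 gene, and the sums of Gapdh and its copies may hold such repeats. Whether differing gene lengths add to the excess was not tested.

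Pgam1 and Eno2 did not pass either. Pgam1, phosphoglycerate mutase, averaged 146 ± 9.61 FPKM with GCA and 162 ± 4.50 with PBS (SD, n = 3 each), without overlap (adjusted p = 0.102, and 0.0242 without GCA replicate 2). Eno2, the neuronal enolase, averaged 1.87 and 2.18 FPKM with GCA and PBS (adjusted p = 0.277). Over all members, 13 other genes that share sequence with one were tested. Of these, 3 fell and none rose, where 6.43% of all tested genes fell and 11.5% rose. The other 10 did not pass, 8 with a negative and 2 with a positive fold change. Of those that fell, Gm6560, which resembles Pkm, was at 5.03, 5.05 and 4.96 FPKM with GCA, against 8.07, 8.59 and 8.32 with PBS (log2 fold change -0.63, adjusted p = 0.000396). For Eno1b, which resembles Eno1, the log2 fold change was -0.32 (adjusted p = 0.0123), and for Gm1840, which resembles Gpi1, -0.33 (adjusted p = 0.00796), so the levels of Pkm, Eno1 and Gpi1 are uncertain by what such copies took. Pitrm1, which is not annotated as a pseudogene, shares sequence with Pfkp. It averaged 15.89 FPKM over all libraries (adjusted p = 0.683), above Pfkp itself, so the level of Pfkp is uncertain too. The 6 genes of this stretch summed to 605 ± 64.4 FPKM with GCA and 827 ± 23.4 with PBS, 0.731-fold.

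**Figure D3:**
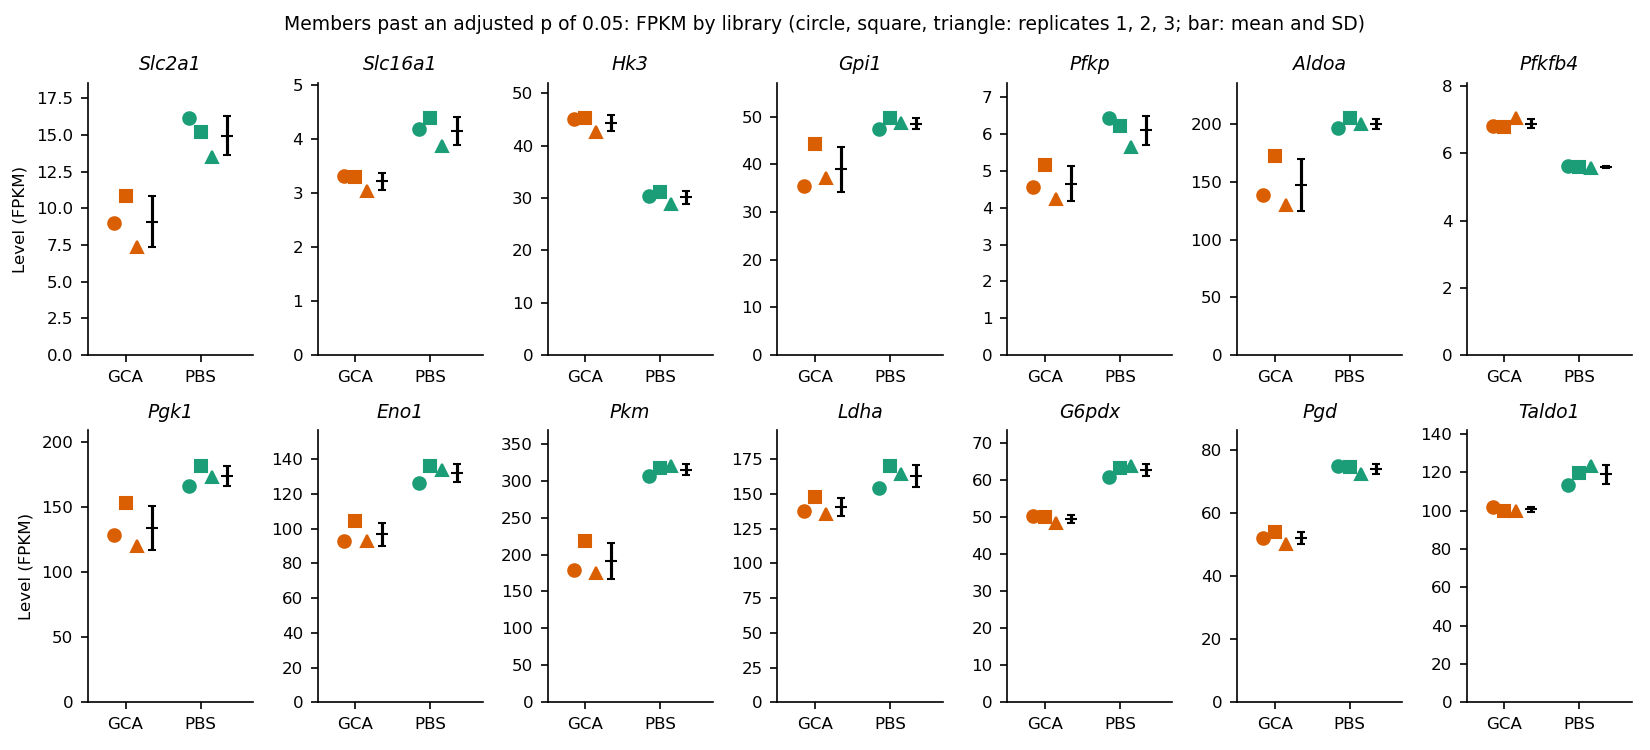
FPKM of each of the 14 genes past an adjusted p of 0.05, 1 panel a gene, with GCA left and PBS right, 1 symbol a library and a bar for the mean and SD. The groups do not overlap in any panel; only Hk3 and Pfkfb4 are higher with GCA, and GCA replicate 2 is the highest GCA library in 9 of the 12 genes that fell.

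At the pyruvate branch point Ldha fell and the genes of pyruvate dehydrogenase control did not pass. Ldha (chromosome 7, 46841475 to 46855627), the lactate-forming subunit, was at 138.02, 148.15 and 135.71 FPKM in GCA replicates 1 to 3, against 154.06, 170.28 and 164.52 FPKM in PBS replicates 1 to 3. This was the smallest of the 12 falls, 13.7% (log2 fold change -0.21, SE 0.06, adjusted p = 0.0354), and its adjusted p was 0.113 and 0.105 without GCA replicates 1 and 3, and 0.122 and 0.108 without PBS replicates 2 and 3. Ldhb, the heart-type subunit, averaged 29.5 ± 2.27 FPKM with GCA and 29.1 ± 1.03 with PBS (SD, n = 3 each; adjusted p = 0.91). The share of Ldha in the sum of both was 82.7% with GCA and 84.8% with PBS, with overlap.

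The pyruvate dehydrogenase kinases, which switch off entry of pyruvate into the citric acid cycle, did not pass in any of 4 cases. Pdk1, a known hypoxia target, was at 3.40, 4.43 and 3.45 FPKM with GCA, against 3.86, 5.03 and 3.95 with PBS, and replicate 2 was the highest library of both groups (adjusted p = 0.394). Pdk4, induced by fasting and fatty acids and the highest of the 4 in FPKM, averaged 44.1 ± 5.93 FPKM with GCA and 53.5 ± 4.79 with PBS (adjusted p = 0.115). Pdk3 averaged 10.4 FPKM with GCA and 11.5 with PBS (adjusted p = 0.188) and Pdk2 4.85 and 4.64 (adjusted p = 0.611). Pdha1, a catalytic subunit of the dehydrogenase itself, averaged 33.7 ± 0.84 FPKM with GCA and 35.8 ± 1.79 with PBS (SD, n = 3 each; adjusted p = 0.288).

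In the pentose phosphate pathway 3 of 6 genes fell, where 6.43% of all tested genes did. They were both NADPH-forming dehydrogenases and transaldolase. G6pdx (ENSMUSG00000031400, chromosome X, 74409483 to 74429194), the dehydrogenase that opens the pathway, was at 50.44, 49.97 and 48.44 FPKM in GCA replicates 1 to 3, against 60.95, 63.34 and 63.92 FPKM in PBS replicates 1 to 3. It was 20.9% lower (log2 fold change -0.33, SE 0.04, adjusted p = 0.00232). Pgd (ENSMUSG00000028961, chromosome 4, 149149991 to 149166771), the phosphogluconate dehydrogenase, was at 51.99, 54.15 and 50.35 FPKM with GCA, against 75.06, 74.66 and 72.35 with PBS (29.5% lower, log2 fold change -0.50, SE 0.05, adjusted p = 0.000549). Taldo1, transaldolase, was at 102.04, 99.85 and 100.12 FPKM with GCA, against 113.70, 119.94 and 123.49 with PBS (15.4% lower, log2 fold change -0.24, SE 0.05, adjusted p = 0.0112, and 0.0502 without PBS replicate 3). The GCA libraries lay closer together in these genes than in Aldoa, Pgk1 or Pkm. G6pdx and Pgd passed in all 18 alternative settings.

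The other steps of the pathway did not pass. Tkt, transketolase, was at 35.01, 38.73 and 34.11 FPKM with GCA, against 36.45, 38.59 and 36.82 with PBS (adjusted p = 0.566). Pgls, the lactonase between the dehydrogenases, averaged 23.1 FPKM with GCA and 23.2 with PBS (log2 fold change -0.01, SE 0.05, adjusted p = 0.929), and Rpia, the ribose phosphate isomerase, 1.95 and 2.02 (adjusted p = 0.888). The 6 genes summed to 263 ± 4.17 FPKM with GCA and 318 ± 6.33 with PBS, 0.828-fold (SD, n = 3 each).

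**Figure D4:**
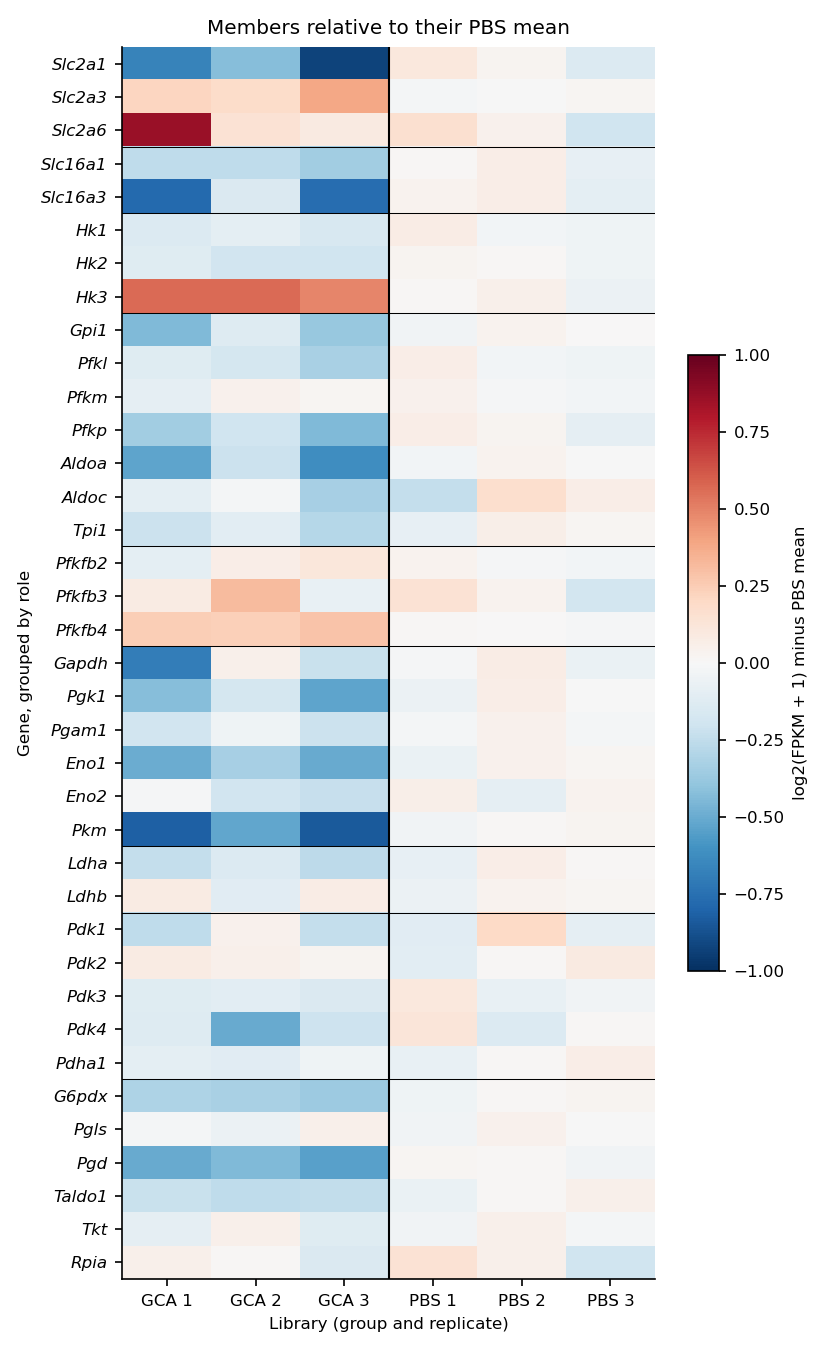
Difference of log2(FPKM + 1) from the PBS mean for each of the 37 genes (down, grouped by role) in each library (across, GCA replicates 1 to 3, then PBS replicates 1 to 3). Pkm and Slc2a1 are the darkest of the genes that fell, Hk3 stands out on the other side, and GCA replicate 2 is paler than replicates 1 and 3 in much of lower glycolysis.

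GCA replicate 2 held the highest GCA value in 9 of the 12 members that fell, the exceptions being Slc16a1, G6pdx and Taldo1. Among all 771 genes that fell in these libraries, 38.8% had their highest GCA value there. Without GCA replicate 2 there were 15 members lower and 2 higher, with Slc16a3, Tpi1 and Pgam1 added.

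Other settings ended some calls. On the TPM scale Slc16a1 and Ldha had adjusted p-values of 0.0528 and 0.0654. With low genes kept in the test, Slc16a1, Gpi1, Pfkp, Aldoa, Pgk1 and Ldha had 0.0635, 0.104, 0.0806, 0.0696, 0.086 and 0.102, and without trend and robust moderation Ldha had 0.0583. Hk2, Pfkl and Tpi1 passed with limma-voom on the recovered fragments (adjusted p = 0.0349, 0.0226 and 0.0217). The members that fell and kept their call throughout were Pkm, Eno1, G6pdx and Pgd, and of those that rose, Hk3.

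Related genes were read in 7 lists beside the members, with 90 genes tested, of which 11 rose (12.2%) and 13 fell (14.4%). Of all tested genes 11.5% rose and 6.43% fell, so the rises in these lists were near the share of all genes. Other isozymes and transporters gave 3 rises and 1 fall among 10 tested. Slc2a8, a hexose transporter of intracellular membranes, was at 7.73, 7.34 and 8.44 FPKM with GCA, against 5.80, 5.92 and 6.00 with PBS (log2 fold change 0.35, adjusted p = 0.00661). Pgam2, the muscle mutase, rose (0.43, adjusted p = 0.0115), as did the lactate transporter Slc16a7 (0.26, adjusted p = 0.0232), while Bsg, the chaperone of the lactate transporters, fell by 10.5% (adjusted p = 0.0473). Leaving out any 1 library but GCA replicate 2 put the adjusted p of Slc16a7 at 0.0606 to 0.0677, and leaving out any 1 of the 6 put that of Bsg at 0.0575 to 0.152. Of 10 further genes of pyruvate entry only Pcx, pyruvate carboxylase, passed, 23.0% lower (adjusted p = 0.0174, and 0.0521 to 0.0558 without PBS replicate 1 or 2).

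Glycogen and sugar branch genes went both ways, beside shares over all tested genes of 11.5% higher and 6.43% lower. Among 13 tested genes of gluconeogenesis and glycogen, Gyg, which primes glycogen, and Phka2, a phosphorylase kinase subunit, rose, and 3 fell, Gbe1 and Pck2 among them. Gbe1, the branching enzyme, was at 5.21, 6.73 and 5.59 FPKM with GCA, against 11.01, 9.80 and 9.79 with PBS, a 42.7% lower mean without overlap (log2 fold change -0.71, adjusted p = 0.00174). Pck2, the mitochondrial carboxykinase, fell by 28.6% (adjusted p = 0.022). Phka2 rose 1.34-fold (adjusted p = 0.00232) and Gyg 1.20-fold (adjusted p = 0.0289). In the fructose, mannose and hexosamine list of 13, the fructose enzymes Khk (adjusted p = 0.0153) and Sord (0.0483) rose and Pmm1, which makes mannose phosphate, fell by 25.3% (adjusted p = 0.00373). Of 9 further pentose and ribose genes, Prps2, which makes the nucleotide precursor of ribose, rose (adjusted p = 0.021) and H6pd, the dehydrogenase of the endoplasmic reticulum, fell by 15.3% (adjusted p = 0.0313). The calls of Gyg, Sord, Prps2 and H6pd were lost on leaving out any 1 library but GCA replicate 2, with adjusted p-values up to 0.09, 0.138, 0.0749 and 0.0977. That of Pck2 was lost without GCA replicate 1 or 3 or PBS replicate 1 or 2 (up to 0.0712) and that of Khk without GCA replicate 3 (0.0519).

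Among regulators of these genes, the subunit of HIF1 was lower with GCA. Of 22 tested, Hif1a, Egln3 and Atf4 fell, Txnip rose and 18 did not pass, where 6.43% of all tested genes fell and 11.5% rose. Hif1a, the oxygen-sensed subunit of HIF1, was at 35.08, 35.80 and 31.77 FPKM with GCA, against 44.28, 41.76 and 43.11 with PBS (20.5% lower, adjusted p = 0.0072). Egln3, an oxygen sensor that is itself a hypoxia target, was at 0.46, 0.94 and 0.26 FPKM with GCA, against 2.47, 2.30 and 1.92 with PBS (log2 fold change -1.07, adjusted p = 0.00396). With means of 0.56 FPKM with GCA and 2.23 with PBS, Egln3 reached the level for testing only through its PBS libraries. Its adjusted p is therefore not independent of the filter and is given as description. The added 1 shrinks the fold of so low a gene: the mean was 75.1% lower, and limma-voom on the recovered fragments gave a log2 fold change of -2.17. Neither Hif1a nor Egln3 overlapped between groups. Atf4, the amino acid stress factor, fell by 24.0% (adjusted p = 0.00752). Txnip, an arrestin that holds back glucose uptake, was at 30.66, 40.39 and 36.32 FPKM with GCA, against 24.93, 28.32 and 26.90 with PBS (adjusted p = 0.0283, and 0.0552 to 0.0941 without GCA replicate 3 or any 1 PBS library). Myc, which drives many glycolytic genes, averaged 13.5 ± 1.05 FPKM with GCA and 14.4 ± 1.41 with PBS (adjusted p = 0.532). Nfe2l2, which encodes NRF2, a known activator of G6pdx, Pgd and Taldo1, averaged 64.6 ± 5.24 and 58.2 ± 1.44 FPKM with GCA and PBS (SD, n = 3 each; adjusted p = 0.149).

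Hypoxia-induced genes outside glycolysis did not move one way. Of 13 tested, Car9 and Ddit4 rose and P4ha1, P4ha2 and Ero1l fell, where 11.5% of all tested genes rose and 6.43% fell. Car9, carbonic anhydrase IX, was at 2.55, 2.20 and 2.77 FPKM with GCA, against 1.48, 1.24 and 1.10 with PBS (log2 fold change 0.63, adjusted p = 0.00405), 1.97-fold by means and 0.98 in log2 units by limma-voom. Ddit4, an inhibitor of mTORC1, was at 84.94, 112.90 and 101.36 FPKM with GCA, against 61.73, 63.83 and 61.68 with PBS (adjusted p = 0.00385). Neither gene overlapped between groups. Ero1l, the oxidase of the endoplasmic reticulum, was at 10.74, 15.62 and 10.27 FPKM with GCA, against 25.89, 28.23 and 23.83 with PBS (log2 fold change -1.05, adjusted p = 0.00735). The collagen prolyl hydroxylase subunits P4ha1 and P4ha2 fell by 14.9% (adjusted p = 0.0332, and 0.0586 to 0.104 without any 1 library but GCA replicate 1) and 24.5% (adjusted p = 0.00317).

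**Figure D5:**
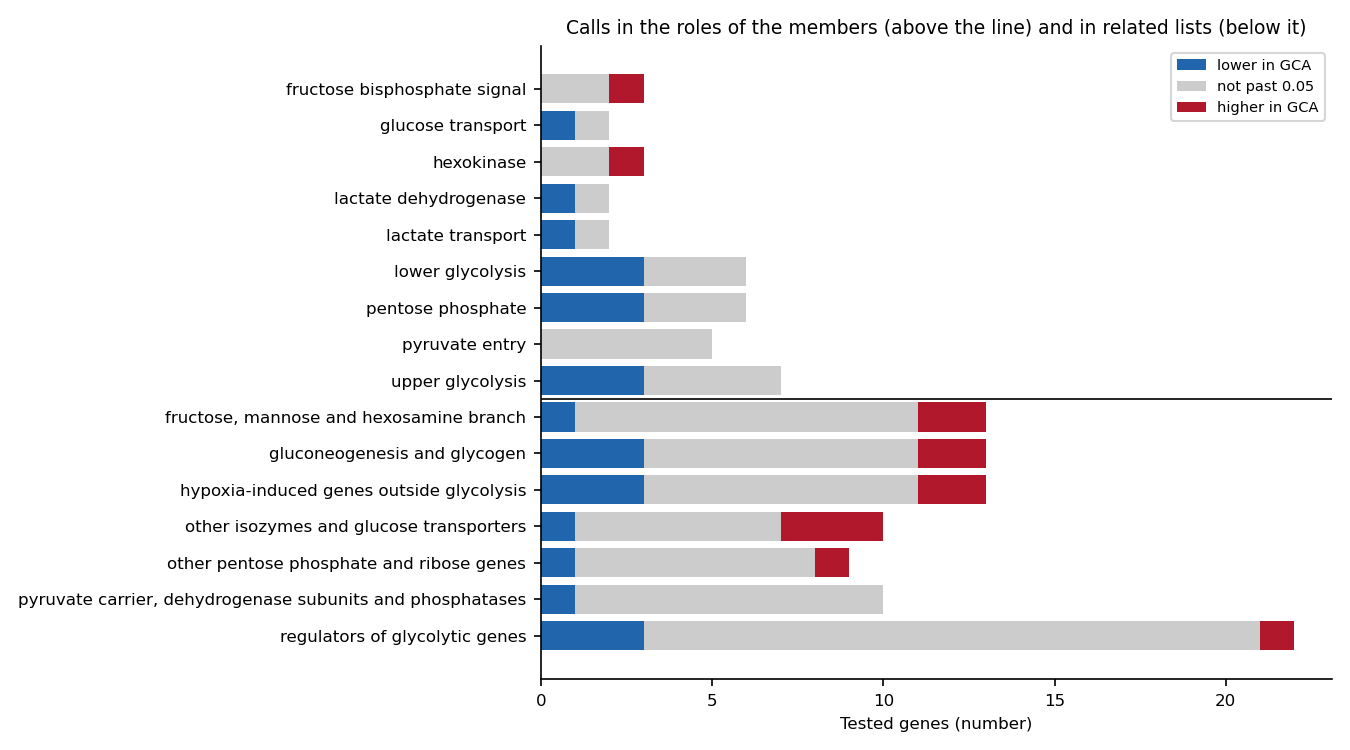
Number of tested genes that were higher, lower or not called with GCA in each role of the glycolytic and pentose phosphate genes (above the line) and in each of the related lists (below it). Falls outnumber rises in lower glycolysis (3 to 0), upper glycolysis (3 to 0) and the pentose phosphate pathway (3 to 0), and the related lists hold both. Among all tested genes 6.43% fell and 11.5% rose.

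The start regions of the members were searched for the core of the hypoxia response element, ACGTG, in the 250 bases before RefSeq transcription starts (GRCm38.p6), on both strands. Windows were found for 36 of the 37 genes, 53 windows in all, since 12 genes have several starts. The core was in 19 of the 53 windows (35.8%), against 16.6% of all 32851 windows. Counting a gene that holds it at any of its starts, it was in 6 of the 12 members that fell, 1 of the 2 that rose and 8 of the 22 that did not pass. With 1 window a gene, at the start nearest to that of its principal GENCODE transcript, 4 of the 12 that fell hold it, as Aldoa and Pkm have it only at another start. The E-box CACGTG, which contains that core, was in 6 of the 53 windows (11.3%), against 6.0% of all windows. TGACNNNGC, the core bound by NRF2, was in 4 (7.5%; Slc16a1, G6pdx and, at another start, Aldoa and Hk1), against 10.2%. The 5 members that passed the test and hold ACGTG at the start nearest to the principal one are shown, because Slc2a1, Slc16a1, Pgk1 and Ldha fell while Hk3, which has it as well, rose. Each window is printed 5′ to 3′ on the strand of its gene, and the capitals mark ACGTG or its reverse complement, and in Slc16a1 also TGACNNNGC in reverse.
Slc2a1 (chr4:119108495.0-119108744.0, plus strand): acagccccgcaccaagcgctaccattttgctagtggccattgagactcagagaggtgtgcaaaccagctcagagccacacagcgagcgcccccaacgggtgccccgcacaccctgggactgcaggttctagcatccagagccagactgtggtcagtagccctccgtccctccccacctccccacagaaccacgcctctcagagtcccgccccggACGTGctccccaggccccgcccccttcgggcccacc
Slc16a1 (chr3:104638414.0-104638663.0, plus strand): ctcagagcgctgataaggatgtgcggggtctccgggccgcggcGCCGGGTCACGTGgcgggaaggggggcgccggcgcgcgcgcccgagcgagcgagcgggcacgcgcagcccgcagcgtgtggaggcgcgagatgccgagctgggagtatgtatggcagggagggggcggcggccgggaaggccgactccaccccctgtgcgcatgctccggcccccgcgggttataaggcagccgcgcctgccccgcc
Pgk1 (chrX:106186850.0-106187099.0, plus strand): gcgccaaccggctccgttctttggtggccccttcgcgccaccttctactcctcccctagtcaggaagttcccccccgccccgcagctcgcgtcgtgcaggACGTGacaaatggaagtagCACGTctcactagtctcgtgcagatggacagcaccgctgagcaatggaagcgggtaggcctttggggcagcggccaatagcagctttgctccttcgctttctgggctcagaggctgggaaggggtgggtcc
Ldha (chr7:46845554.0-46845803.0, plus strand): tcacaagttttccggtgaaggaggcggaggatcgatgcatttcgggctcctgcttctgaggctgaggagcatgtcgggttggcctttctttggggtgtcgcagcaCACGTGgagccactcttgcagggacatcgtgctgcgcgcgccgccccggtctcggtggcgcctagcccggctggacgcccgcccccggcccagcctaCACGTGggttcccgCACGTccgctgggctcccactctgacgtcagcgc
Hk3 (chr13:55021386.0-55021635.0, minus strand): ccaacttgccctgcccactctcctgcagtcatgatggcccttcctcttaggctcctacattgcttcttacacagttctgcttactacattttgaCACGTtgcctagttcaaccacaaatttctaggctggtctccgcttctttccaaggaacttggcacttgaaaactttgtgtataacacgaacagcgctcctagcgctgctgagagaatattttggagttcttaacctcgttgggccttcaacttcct
Ldha had the most matches, 5 counting both strands of its E-boxes, the nearest at 34 bases before the start, and Slc2a1 and Hk3 had 1 each, at 36 and 156 bases. Eno1 and Pgd had none of the 3 motifs at any listed start. A match describes letters and does not show binding.

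Markers of the cells in the dish moved too. Of 20 macrophage markers, all tested, 10 rose, 1 fell (Lyz2) and 9 did not pass, and none was at 0 in any library. For these and the other marker lists, the shares over all tested genes were 11.5% higher and 6.43% lower. Their sum was 18843 to 19970 FPKM with GCA and 21070 to 23402 with PBS; Lyz2 and C1qa were the most abundant, and the 19 without Lyz2 summed to 10279 to 10802 with GCA and 8445 to 9332 with PBS. Ptprc, which encodes the CD45 that the sort selected against, averaged 13.4 ± 0.89 FPKM with GCA and 12.6 ± 0.59 with PBS (SD, n = 3 each; adjusted p = 0.372), and Itgam, which encodes CD11b, 30.5 ± 9.0 and 39.3 ± 3.35 (adjusted p = 0.244). Of 18 stromal markers 16 were tested, 1 rose, 4 fell and 11 did not pass, and the sum, led by Col1a1 and Col1a2, was 2609.3 to 2803.5 FPKM with GCA and 2957.9 to 3205.9 with PBS. Neither list had a member at 0, and both cell types use the genes described above, Hk3 being a gene of the myeloid side. In every library the macrophage sum was far above the stromal sum, although the cells had been sorted as CD45- CD11b-. The part of either cell type in the changes of the members was not tested.

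Markers of further cell types were low or few, apart from the osteoblast marker Ibsp. The neutrophil list had 3 tested genes, of which Csf3r rose, and summed to 13.3 to 18.6 FPKM with GCA and 10.8 to 13.4 with PBS. The erythroid sum was at most 1.33 FPKM with GCA and 1.04 with PBS, the lymphocyte sum at most 0.19 and 0.20, and the endothelial sum at most 3.39 and 3.05. Of 4 tested osteoblast markers, Sp7 and Ibsp rose and Bglap2 fell, with a list sum of 254.6 to 336.4 FPKM with GCA and 150.4 to 204.1 with PBS. Most of that sum was Ibsp, which averaged 268.3 FPKM with GCA and 161.8 with PBS. The adipocyte sum was 24.3 to 31.6 FPKM with GCA and 24.4 to 27.5 with PBS, with no call in 1 tested gene.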

How the data were processed

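RNA of cells labelled as mouse bone marrow stromal cells was sequenced as paired-end reads in 3 GCA and 3 PBS libraries. Per the submitters' processing notes, the builds were mm8 and mm9 and the tool Bowtie 0.12.2. How genes were counted, on which annotation, is not given in the sources used. The deposited FPKM values carry no unit in their headers: multiplied by GENCODE M21 exon-union length, 90.75% to 91.04% of the values above 0 came out whole within 0.02 fragment, over 1 total per library. Lengths and coordinates are therefore those of GENCODE M21 (GRCm38), matched by Ensembl identifier for 27204 of 27263 genes. The alignment's build was not tested. FPKM levels are those deposited and were not computed anew here. As most values came out whole, most deposited levels had been divided by lengths equal to these. Comparisons of level between genes, isozyme shares and sums by role therefore rest on exon-union lengths, while fold changes of a gene between groups do not. Where the authors' lengths differ from these, the recovered fragments are affected, and with them the fragment counts, the limma-voom setting and the Gapdh shares.

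The main test was limma-trend with robust moderation (limma 3.58.1, R 4.3.3) on log2(FPKM + 1), over genes whose mean reached 1 FPKM across the 6 libraries, with treatment as the only term, two-sided, at a Benjamini-Hochberg adjusted p of 0.05. The step was tried on simulated counts with the same fixed spread for every gene and larger fold changes than most members called here. That trial cannot vouch for calls of this size or for genes of wider spread. Alternatives were the replicate number as a block, other scalings, filters, pseudocounts and moderation, limma-voom on recovered fragments, a threshold of 0.01 and leaving out each library. Median chi-square per gene between libraries of 1 group was 0.921 to 1.68, and no pair was counted as 1 sample. That value cannot show that libraries came from separate animals or cultures, because libraries of 1 culture can differ too. Other genes with near-identical stretches, copies or not, were found with BLAST 2.17.0 within GENCODE M21. For the figures and summaries matplotlib 3.10.9, pandas 2.3.3 and numpy 2.4.6 on Python 3.11.15 were used. Promoter windows are from RefSeq, GRCm38.p6.

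The members, the lists beside them and the tests were chosen with earlier results of these data known. Values per library are given for every member past the threshold and for a fixed few; from each related list the genes past the threshold are named, except 1 that is not reported here, and from each marker list the 2 most abundant where its sum is high. The marker genes S100a9, Ngp, Ltf, Cxcr2, Retnlg, Hbb-bs, Hbb-bt, Hba-a1, Hba-a2, Slc4a1, Cd3e, Cd3d, Cd8a, Klrb1c and Cidec, and the isozymes Pgk2, Ldhc, Fbp2 and G6pc, were not analysed here.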

Additional observations from a re-analysis of the deposited data

How the results depend on the processing

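Of the 14 called members, 5 (Hk3, Eno1, Pkm, G6pdx and Pgd) passed in all 18 alternatives, and those 5 and Pfkfb4 passed without any 1 library. Over 60 named genes, 899 gene and setting pairs kept direction and side of the threshold, 140 lost the call, 17 gained it and 12 changed sign. With libraries left out in turn, 1225 to 2078 genes passed (841 to 1310 higher, 384 to 768 lower), 7 to 17 members (2 higher throughout, 5 to 15 lower) and 13 to 27 genes of the related lists (5 to 13 higher, 7 to 14 lower). Without the filter 1075 genes passed (735 higher, 340 lower), 8 members (6 lower) and 11 related genes (4 higher, 7 lower), with more genes tested. At a threshold of 0.01 there were 837 genes (591 higher, 246 lower), 5 members (1 higher, 4 lower) and 11 related genes (4 higher, 7 lower). On the TPM scale 1426 genes passed (503 lower), and 1 member was higher; the cause was not tested. Changed signs were all near 0 and uncalled. After quantile normalization Pfkfb2 was at -0.003 and Ldhb at -0.026 (log2 fold change). With libraries left out in turn, Pfkfb2 ranged over -0.016 to 0.088, Ldhb over -0.021 to 0.077, Pfkm over -0.033 to 0.034, Pgls over -0.038 to 0.017 and Rpia over -0.128 to 0.046. On the TPM scale Sord, Gyg, P4ha1, Slc16a7, Bsg and H6pd were among the related genes that lost their calls (adjusted p = 0.0711 to 0.183).

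Deviations of same-numbered libraries correlated at 0.082, 0.029 and 0.068, so the numbers were not taken to pair the samples, although each GCA library matched its own number best, which is a hint from the data and not the design. With the replicate number as a block, 18 members passed (2 higher, 16 lower; Slc16a3, Pfkl, Tpi1 and Pdk4 added) and 2094 genes in all (1334 higher, 760 lower).

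With 3 libraries per group, most calls of members sit close enough to the threshold that 1 library moves them. The unit and gene lengths were inferred from the values. Genes with near-identical copies, Gapdh first, have uncertain levels.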
